A study of Mus musculus with 28 samples.

Results

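The homeobox, T-box and related regional factors of the mouse hypothalamus were followed through 28 RNA-seq libraries. Members were chosen by symbol alone: every row of the deposited table whose symbol belongs to the Lhx, Isl, Nkx, Dlx, Irx, Otp, Sim, Tbx, Pou, Meis or Onecut genes or to Six3 and its relatives, without use of any measured value. The rule found 79 of 55487 genes, in 9 families. These were 10 LIM genes (Lhx and Isl), 14 NKX, 6 of the Six3 family, 6 DLX, 6 IRX, 3 of Otp and Sim, 13 T-box, 15 POU and 6 of Meis and Onecut.

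The proteins are DNA-binding transcription factors that pattern the embryonic neural tube and later help keep up the identity of the nerve cells that arose in each territory. Many remain switched on in the adult hypothalamus, where each marks a set of nuclei or neuron types rather than the whole tissue. Isl1, Tbx3, Otp and Nkx2-1 are known from the development of arcuate neurons that sense leptin, Sim1 from the paraventricular nucleus, and Tbx19 and Pou1f1 from hormone cells of the pituitary gland.

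The mice carried LepRb-eGFP-L10a, a ribosomal protein tagged with eGFP that is made in cells with the long leptin receptor, either on a leptin-competent background (labelled WT) or with ob/ob, a mutation that removes functional leptin. They were 10 to 13 weeks old and of both sexes, and their food was taken away when the lights came on. Metreleptin (5 mg/kg, a leptin analogue, intraperitoneal) or vehicle was then given and the hypothalamus was taken 3 or 10 h later. Ribosomes pulled down through eGFP gave the bead fraction, and the RNA left in the same lysate gave the depleted fraction. The 14 lysates were 4 vehicle and 3 leptin of WT at 3 h, 1 vehicle and 3 leptin of WT at 10 h, and 2 vehicle and 1 leptin of ob/ob at 10 h. The labels do not say how many mice went into a lysate, so p-values measure the spread between lysates. The vehicle is named as saline in the protocol and as PBS in the treatment labels.

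Library totals were 21277982 to 42267040 counts in beads and 19649105 to 41804049 in the depleted fraction. Each of the 3 sequencing runs held 1 of the strata WT 3 h, WT 10 h and ob/ob 10 h, so time, genotype and run cannot be told apart. As a check of the pull-down, 10 of 10 markers of LepRb neurons were higher in beads, with a median log2 difference of 3.24, whereas 10 of 10 oligodendrocyte, 8 of 8 astrocyte and 8 of 8 microglia markers were lower. Endothelial markers went the other way, with 3 of 5 called higher in beads (Flt1 1.24, Pecam1 0.81 and Cldn5 0.51 as log2 differences) and none lower. A pair of WT 3 h lysates stood apart by pituitary transcripts, vehicle m3 and leptin f2. In their depleted libraries 9 pituitary markers summed to 288 and 3072 CPM (counts scaled to a common library size, with TMM factors). Of the other 12, ob/ob leptin 1 had 149.8 CPM and the rest 3.19 to 7.88 CPM. The ob/ob leptin 1 lysate stayed in the fits made without vehicle m3 and leptin f2. Where a member described here gained or lost a call without those 2 lysates, the value is given beside its result.

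Of the 79 members, 58 had at least 10 counts in at least 3 of the 28 libraries and were tested between fractions. The 21 that did not were Dlx3, Irx4, Isl2, Lhx4, Nkx1-1, Nkx1-2, Nkx2-3, Nkx2-5, Nkx2-6, Nkx3-2, Nkx6-3, Pou2f3, Pou4f2, Pou4f3, Pou5f1, Pou5f2, Tbx4, Tbx5, Tbx10, Tbx20 and Tbx22. Nkx6-3 had the highest mean level among them, 0.202 CPM in the depleted fraction, and Nkx2-6 had no count in any library.

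Promoter sequences were taken from RefSeq (GRCm38.p6), as windows from 250 bases before to 50 bases after a transcription start, and 56 of the 79 members had at least 1. Windows are shown 5′ to 3′ for 3 members that were higher in beads (Tbx19, Otp and Isl1) and for Nkx6-2, which was lower. Capitals mark matches, on either strand, to TAATTA (a core bound by many homeodomain proteins), AGGTGTGA (a core bound by T-box proteins) or TTCNNNGAA (the spaced palindrome bound by STAT proteins, which act downstream of the leptin receptor).
Tbx19, chr1:165160724-165161023, minus strand: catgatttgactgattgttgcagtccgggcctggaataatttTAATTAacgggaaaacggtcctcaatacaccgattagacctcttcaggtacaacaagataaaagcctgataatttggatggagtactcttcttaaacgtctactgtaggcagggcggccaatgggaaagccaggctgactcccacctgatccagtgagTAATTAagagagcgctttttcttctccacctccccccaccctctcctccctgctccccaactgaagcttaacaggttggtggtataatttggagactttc
Otp, chr13:94875386-94875685, plus strand: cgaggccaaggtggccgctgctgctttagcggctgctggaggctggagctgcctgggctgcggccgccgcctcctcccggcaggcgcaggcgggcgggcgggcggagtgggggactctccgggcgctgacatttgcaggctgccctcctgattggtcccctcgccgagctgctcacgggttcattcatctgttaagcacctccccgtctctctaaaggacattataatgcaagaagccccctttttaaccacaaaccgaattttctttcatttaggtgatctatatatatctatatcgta
Isl1, chr13:116309639-116309938, minus strand: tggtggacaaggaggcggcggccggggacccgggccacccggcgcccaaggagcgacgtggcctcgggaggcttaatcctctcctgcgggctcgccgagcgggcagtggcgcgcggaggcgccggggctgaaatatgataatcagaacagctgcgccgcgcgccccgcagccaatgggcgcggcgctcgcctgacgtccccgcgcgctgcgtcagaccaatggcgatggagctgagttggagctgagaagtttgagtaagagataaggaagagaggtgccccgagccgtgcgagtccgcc
Nkx6-2, chr7:139582748-139583047, minus strand: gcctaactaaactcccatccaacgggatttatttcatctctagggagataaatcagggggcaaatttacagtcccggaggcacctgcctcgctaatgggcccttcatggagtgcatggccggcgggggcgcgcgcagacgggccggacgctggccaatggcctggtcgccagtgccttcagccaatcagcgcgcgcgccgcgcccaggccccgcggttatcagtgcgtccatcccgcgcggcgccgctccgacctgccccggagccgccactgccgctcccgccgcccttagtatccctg
The Tbx19 window held 2 matches to TAATTA, and the other 3 windows held none of the motifs. Among all 32851 windows of the same length, TAATTA was present in 5.29%, AGGTGTGA in 1.28% and TTCNNNGAA in 8.3%. Of the 12 members called higher in beads that had a window, 1 held TAATTA (Tbx19) and none held either of the other motifs. Of the 22 called lower, 1 held TTCNNNGAA (Pou2f1) and none held the others.

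The first question was which regional factors were richer in ribosome-bound RNA of LepRb cells than in the RNA left behind. Bead and depleted libraries were compared within the 14 lysates by edgeR's quasi-likelihood test. Adjustment ran over the 19682 genes that entered, and an adjusted p under 0.05 made a call. Of the 58 tested members, 16 were higher in beads, 32 were lower and 10 did not pass. Over all genes 38.6% were called higher and 39.3% lower, so most genes passed in 1 direction or the other at this depth. The median log2 difference was -0.41 over the members and -0.01 over all genes. At a difference of at least 2-fold, 10 members were higher and 18 lower, against 3.79% and 13.9% of all genes. Since the tissue is bulk and beads hold ribosome-bound RNA, fewer cells with a transcript, less of it per cell and less of it on ribosomes cannot be told apart. General neuron markers differed as well: Map2 -0.85, Elavl3 -0.22, Syt1 -0.16, Rbfox3 0.20 and Stmn2 0.55 as log2 differences. Snap25 (-0.02) did not pass. Without the 2 pituitary-rich lysates, 15 members were higher and 31 lower. With libraries scaled by their totals alone the split moved, to 15 higher and 37 lower among members and 5393 higher and 9925 lower among all genes, from 7603 and 7730.

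**Figure D1:**
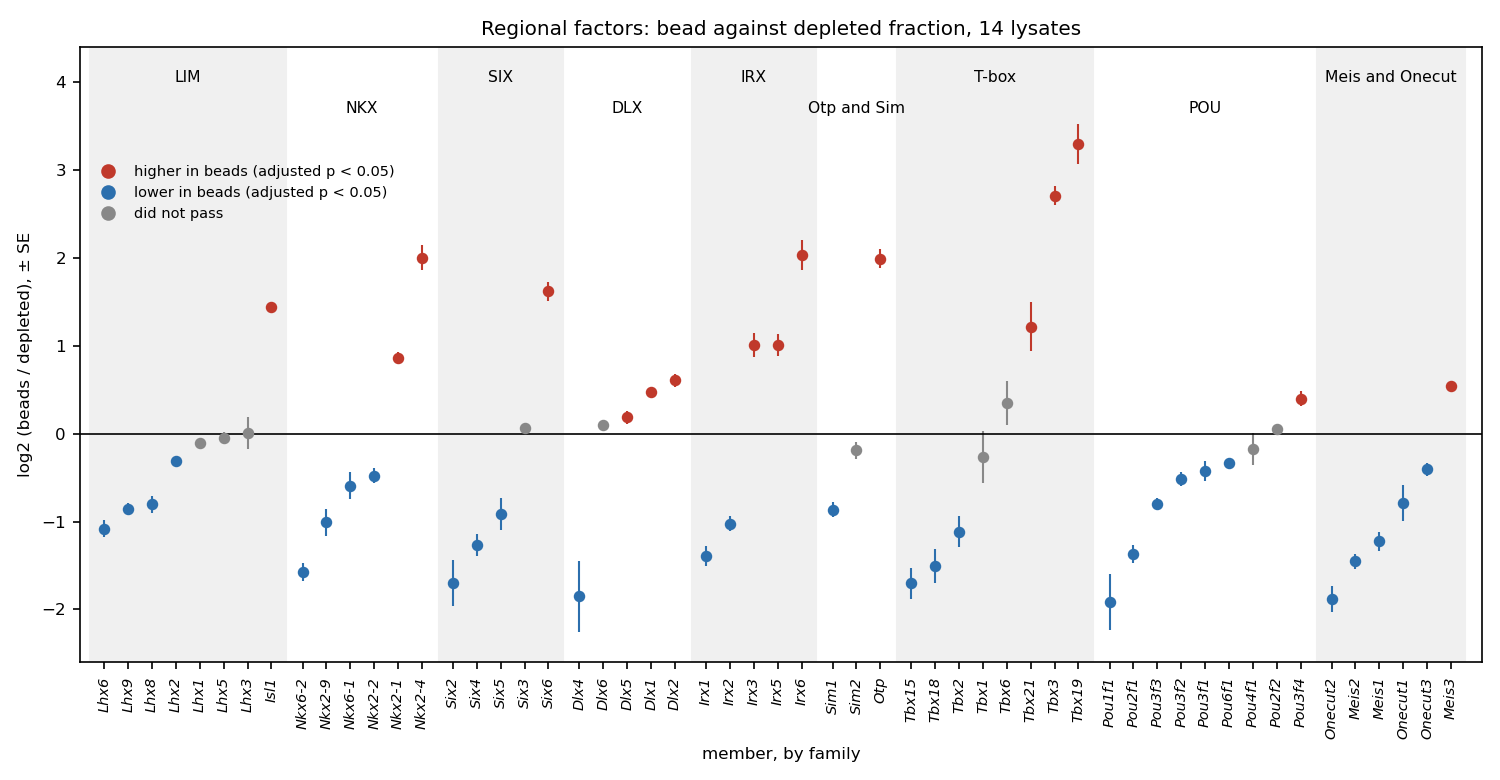
Difference between the bead and the depleted fraction for 55 of the 58 tested members, grouped by family and ordered within it (vertical axis log2, bars ± SE from the paired fit of 14 lysates). Red points passed as higher in beads, blue as lower and grey did not pass. Every family held at least 1 member called higher and at least 1 called lower, from Tbx19 at 3.30 to Pou1f1 at -1.92.

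Members of 1 family did not move together. Counts of members higher, lower and not passed were 1, 4 and 3 for LIM, 2, 5 and 0 for NKX, 1, 4 and 1 for the Six3 family, 3, 1 and 1 for DLX, and 3, 2 and 0 for IRX. They were 1, 1 and 1 for Otp and Sim, 3, 3 and 2 for T-box, 1, 7 and 2 for POU, and 1, 5 and 0 for Meis and Onecut. The family medians ran from -1.09 for the Six3 family to 1.01 for IRX.

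The T-box family held the members with the largest rises, Tbx19 and Tbx3. Tbx19, which switches on Pomc in pituitary corticotropes (chr1:165137855-165160773, minus strand), had 3.35 CPM in the lowest, 8.56 in the median and 16.3 in the highest of the 14 bead libraries. Its depleted libraries ran from 0.389 through a median of 0.692 to 3.45 CPM. The bead library was the higher of the pair in 14 of 14 lysates, and the ranges of the fractions overlapped only through the depleted library of leptin f2 at 3.45 CPM, one of the pituitary-rich lysates. The log2 difference was 3.30 ± 0.23 (SE, 14 lysates), or 9.83-fold, with an adjusted p of 8.88e-10. It was 3.602 without the 2 pituitary-rich lysates.

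Tbx3, a repressor needed for the identity of arcuate Pomc and Agrp neurons (chr5:119670669-119684724), had 28.2 CPM in the lowest, 41.9 in the median and 68.4 in the highest bead library, against 4.64, 6.47 and 8.89 CPM in the depleted fraction. The fractions did not overlap, and the difference was 2.71 ± 0.11 on the log2 scale (6.54-fold, adjusted p = 1.07e-12). Tbx21, known as the T-bet factor of T cells, was higher as well at a low level, 0.669 against 0.285 CPM (log2 1.22 ± 0.28), in 13 of 14 lysates. Tbx15 and Tbx18, known from mesenchyme and, for Tbx18, from pericytes and smooth muscle of vessels, fell by 1.70 ± 0.18 and 1.502 ± 0.19 in beads, and Tbx2 fell by 1.11 ± 0.18. All 3 were lower in all 14 lysates. Of 5 mural cell markers 2 passed as lower and none as higher, and 5 of 5 leptomeningeal markers were lower; their part in the Tbx15 and Tbx18 values was not tested. Tbx18 shares 970 of its 4718 exonic bases with a gene on the opposite strand, which a library without strand cannot separate. Tbx1 (-0.27 ± 0.29) and Tbx6 (0.35 ± 0.25) did not pass.

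Otp, required for neuroendocrine neurons of the paraventricular and arcuate nuclei (chr13:94875602-94885130), was the most abundant member in beads. Per kilobase of exon it reached 66.8 CPM in beads, ahead of Meis3 at 21.5, Isl1 at 17.9 and Nkx2-1 at 13.6 CPM per kb. Its bead libraries ran from 127.3 through a median of 180.0 to 360.3 CPM and its depleted libraries from 39.3 through 46.9 to 54.3 CPM, with no overlap. The difference was 1.99 ± 0.10 on the log2 scale, or 3.98-fold (adjusted p = 4.21e-11). The highest bead value came from WT 10 h leptin 3, a library that also held the highest bead level of Tbx3, Tbx19, Nkx2-4, Nkx2-1, Irx3, Irx5, Irx6 and Six6. Without that library's lysate 15 members were called higher and 32 lower.

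Sim1, also known from the paraventricular nucleus, went the other way, from 11.6 ± 1.65 CPM in the depleted fraction to 6.35 ± 1.02 in beads (SD, n = 14). It was lower in beads in all 14 lysates, with a log2 difference of -0.87 ± 0.08. Sim2 (-0.19 ± 0.09) did not pass.

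**Figure D2:**
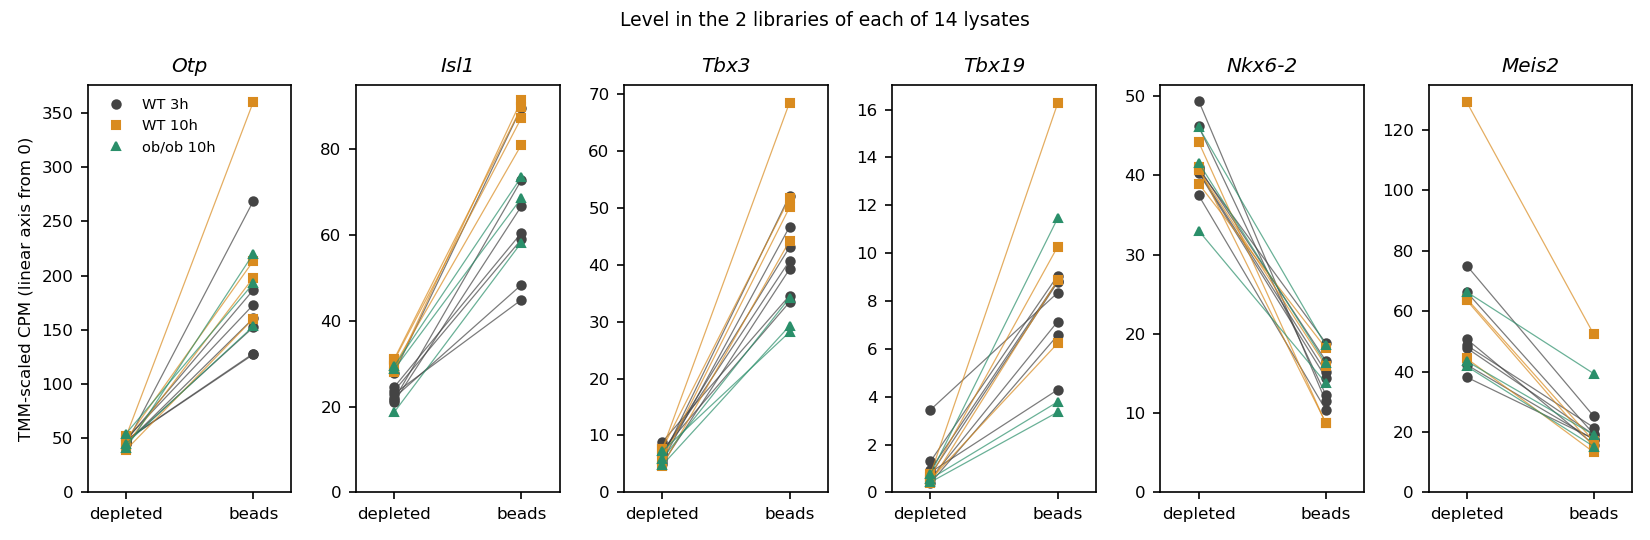
Level of 6 members in the depleted and the bead library of each of 14 lysates (TMM-scaled CPM on linear axes from 0; a line joins the libraries of 1 lysate; circles WT 3 h, squares WT 10 h, triangles ob/ob 10 h). Otp, Isl1, Tbx3 and Tbx19 rise in every lysate and Nkx6-2 and Meis2 fall in every lysate; the highest Otp point, 360.3 CPM, is WT 10 h leptin 3 and the highest Meis2 point, 129 CPM, is WT 10 h vehicle 1.

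Among LIM genes only Isl1 passed as higher in beads. Isl1, which specifies Pomc and other arcuate neurons (chr13:116298281-116309689), had 44.9, 70.7 and 91.5 CPM as the lowest, median and highest bead value, and 18.7, 26.2 and 31.1 CPM in the depleted fraction. No bead library fell to the depleted range, and the difference was 1.45 ± 0.06 (2.72-fold, adjusted p = 5.53e-14). Lhx6 and Lhx8, factors of GABAergic and cholinergic neurons of the basal forebrain, fell by 1.08 ± 0.09 and 0.80 ± 0.10. Lhx9 fell by 0.86 ± 0.07, from 35.9 ± 6.01 to 19.9 ± 3.49 CPM (SD, n = 14), and Lhx2 by 0.31 ± 0.05. Lhx6, Lhx8 and Lhx9 were lower in 14 of 14 lysates and Lhx2 in 13. Lhx1, a factor of the suprachiasmatic clock, did not pass at -0.11 ± 0.06 (adjusted p = 0.11), but passed as lower in 4 of 22 alternatives: with totals alone (-0.28), with DESeq2's size factors, by DESeq2 (adjusted p = 0.0326) and without WT 3 h vehicle m1. Lhx5 (-0.04 ± 0.07) did not pass, nor did the pituitary and motor neuron factor Lhx3. Lhx3 had 1.04 CPM in beads and 1.02 in the depleted fraction, with its highest values of either fraction, 2.42 and 2.701 CPM, in the pituitary-rich lysate leptin f2.

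Of the NKX genes, Nkx2-1 and its close relative Nkx2-4 were higher in beads. Nkx2-1 is needed for the ventral hypothalamus to form. It had 29.4, 36.2 and 72.1 CPM as the lowest, median and highest bead value against 16.1, 20.9 and 25.0 CPM in the depleted fraction, without overlap (log2 0.86 ± 0.07). Nkx2-4 (chr2:147083316-147085445) differed more, with 9.82, 12.5 and 43.4 CPM in beads against 2.77, 3.52 and 4.56 CPM (log2 2.00 ± 0.14, adjusted p = 6.77e-10). Nkx6-2, a factor of maturing oligodendrocytes (chr7:139579376-139582797), was the member with the most depleted RNA per kilobase, 21.8 CPM per kb. It fell from 33.0 to 49.4 CPM across depleted libraries to 8.73 to 18.9 CPM across bead libraries (log2 difference -1.57 ± 0.10, adjusted p = 2.57e-10). The 10 oligodendrocyte markers summed to between 4552 and 6266 CPM in depleted and between 1107 and 3402 CPM in bead libraries; their part in the Nkx6-2 value was not tested. Nkx6-2 shares 246 of its 1907 exonic bases with Inpp5a on the other strand. Nkx2-2 (-0.48 ± 0.08), Nkx2-9 (-1.01 ± 0.15) and Nkx6-1 (-0.59 ± 0.15) were lower too.

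Six6 was the only gene of the Six3 family called higher in beads. It acts in the eye, the hypothalamus and the pituitary, and had 11.001, 19.0 and 32.2 CPM in beads against 4.03, 6.00 and 11.5 CPM in the depleted fraction (log2 1.62 ± 0.11, adjusted p = 3.13e-10). The highest depleted value, 11.5 CPM, was again that of leptin f2, and the difference was 1.73 without the pituitary-rich lysates. Its relative Six3 was at 57.0 ± 9.97 CPM in beads and 53.8 ± 3.26 in the depleted fraction (SD, n = 14), a log2 difference of 0.07 ± 0.05 that did not pass. With totals alone it turned to -0.11 and passed as lower (adjusted p = 0.0414). Six2, Six4 and Six5, known from kidney, muscle and placodes, had log2 differences of -1.70 ± 0.26, -1.27 ± 0.13 and -0.92 ± 0.18, each at a mean of at most 2.48 CPM in either fraction.

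Of 5 tested DLX genes, some of which direct GABAergic neuron fate, 3 were called higher in beads, 1 (Dlx4) lower and 1 did not pass. Dlx1 had 61.8 ± 9.75 CPM in beads and 44.7 ± 7.21 in the depleted fraction (SD, n = 14), higher in 14 of 14 lysates (log2 0.47 ± 0.04). Dlx2 rose by 0.61 ± 0.07, also in 14 of 14. Dlx5 passed narrowly (0.19 ± 0.07, adjusted p = 0.0269, higher in 11 of 14) and kept its call in 11 of 22 alternative analyses, but not without the 2 pituitary-rich lysates (adjusted p = 0.0592). Dlx6 had a log2 difference of 0.09 ± 0.05, did not pass, and turned to -0.08 with totals alone. Dlx4, at 0.0805 CPM in beads, fell by 1.85 ± 0.40.

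IRX genes split by genomic cluster. Irx3, Irx5 and Irx6, whose outermost members lie 872 kb apart on chromosome 8, were higher in all 14 bead libraries, with log2 differences of 1.01 ± 0.14, 1.01 ± 0.12 and 2.04 ± 0.17. Irx3 had 11.3 ± 4.58 CPM in beads and 5.45 ± 0.994 in the depleted fraction, and Irx6 had 6.95 ± 2.82 and 1.63 ± 0.390 CPM (SD, n = 14). Irx1 and Irx2, which lie 665 kb apart on chromosome 13, were lower in all 14, with log2 differences of -1.39 ± 0.11 and -1.02 ± 0.08. Irx3 and Irx6 overlap antisense transcripts over 124 and 152 exonic bases.

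Of 17 pairs of the members reported here that lie within 1000 kb of each other, 12 had both members tested. In 5 pairs both were called in the same direction and in 4 the calls were opposite. Over all genes 38.6% were called higher and 39.3% lower. Neighbouring pairs of other genes were not counted, so these pair counts have no background to set them against. The opposite pairs were Tbx19 with Pou2f1 (704 kb apart), Nkx2-1 with Nkx2-9 (74.5 kb), Nkx2-4 with Nkx2-2 (92.1 kb), and Six6 with Six4 (155 kb). Nkx2-4 at 2.00 and Nkx2-2 at -0.48 differed in sign although 92.1 kb separates them, and Six6 at 1.62 and Six4 at -1.27 did so at 155 kb. The pairs called alike were Irx3, Irx5 and Irx6 with each other, which are pairs within 1 cluster, Irx1 with Irx2, and Dlx1 with Dlx2.

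**Figure D3:**
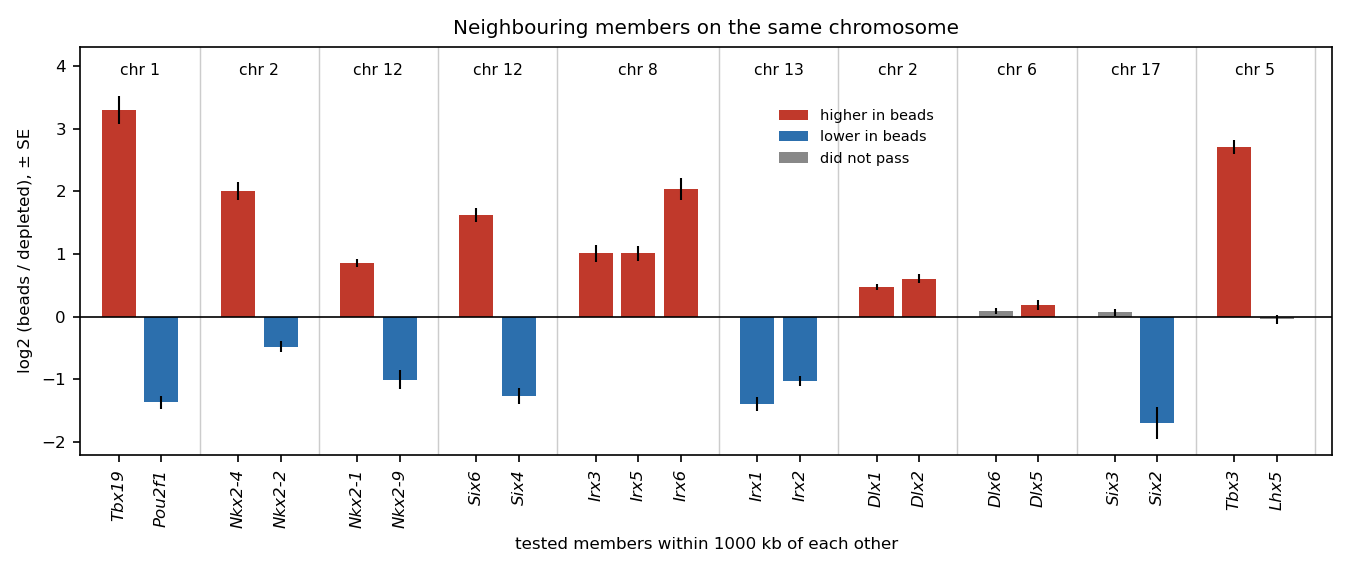
Log2 difference between beads and depleted (bars, ± SE) for tested members that lie within 1000 kb of another tested member, grouped by cluster with its chromosome above. Red bars passed as higher in beads, blue as lower, grey did not pass. The chromosome 8 IRX cluster is red throughout, the chromosome 13 IRX cluster blue throughout, and chromosome 12 holds Six6 at 1.62 beside Six4 at -1.27.

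POU genes were mostly lower in beads. Pou3f3 and Pou3f2 (Brn1 and Brn2, factors of neuroendocrine and cortical neurons) fell by 0.80 ± 0.06 and 0.51 ± 0.08, from 72.2 ± 5.88 to 42.1 ± 7.69 CPM and from 37.0 ± 2.75 to 26.4 ± 5.60 CPM (SD, n = 14). Pou3f4, a relative of both, rose by 0.40 ± 0.09, from 7.58 ± 0.944 to 10.1 ± 2.42 CPM, in 13 of 14 lysates. Pou2f1, which encodes the broadly used octamer factor Oct1, had a log2 difference of -1.37 ± 0.11. Of its 16597 exonic bases 3007 lie opposite Cd247. Pou3f1 (-0.42 ± 0.11) and Pou6f1 (-0.33 ± 0.04) were lower by less than 2-fold. Pou2f2 (0.06 ± 0.04) and the habenular and sensory factor Pou4f1 (-0.17 ± 0.18) did not pass.

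Pou1f1, which drives the growth hormone, prolactin and thyrotropin genes of the pituitary, was called lower (-1.92 ± 0.32), but its reads came almost entirely from the pituitary-rich lysates. It had 2.58 CPM in beads and 7.93 depleted in leptin f2, and 0.522 and 2.49 CPM in vehicle m3. Next came ob/ob leptin 1 with 0.0996 and 0.427 CPM, and no other depleted library exceeded 0.0599 CPM. Without the 2 lysates, or without either, it no longer reached the count minimum. DESeq2 did not call it (adjusted p = 0.633).

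Of Meis and Onecut genes, which act with other homeodomain proteins, Meis3 alone was higher in beads, at 68.1 ± 11.2 against 46.3 ± 2.38 CPM (SD, n = 14; log2 0.54 ± 0.05). Meis2, a factor of the striatum and other telencephalic regions (chr2:115863064-116065839), had 13.3, 18.4 and 52.3 CPM as the lowest, median and highest bead value and 38.1, 49.7 and 129 CPM in the depleted fraction. Each lysate held less in beads, and the log2 difference was -1.45 ± 0.09 (adjusted p = 6.44e-11). Meis1 (-1.22 ± 0.11), Onecut2 (-1.89 ± 0.15), Onecut1 (-0.79 ± 0.21) and Onecut3 (-0.41 ± 0.07) were lower as well. Onecut1 was at a low level, 0.381 CPM in beads and 0.661 in the depleted fraction. It shares 2171 of its 4113 exonic bases with Gm20649 on the same strand. Its mean log2 ratio was -0.22 in WT at 3 h, -1.70 in WT at 10 h and -1.39 in ob/ob. Onecut2 fell from 15.9 ± 1.66 to 4.47 ± 1.78 CPM.

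For comparison, a list of 45 other regional factors of the hypothalamus and its neighbours had 44 tested genes, of which 19 were higher and 22 lower in beads (median log2 difference -0.08). Gsx1 (3.56 ± 0.12), Nr5a1 (2.76 ± 0.08) and Nr0b1 (2.52 ± 0.13) were highest on that list. Foxd1 (-1.35 ± 0.13) and Prdm13 (-1.002 ± 0.12) were among the lowest.

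Members differed in how steady they were over lysates. Among the 49 tested members with a mean of at least 1 CPM in the depleted fraction, the coefficient of variation over the 14 lysates ran from 5.15% (Meis3) to 66.6% (Pou4f1), with a median of 16.1%. Among the 46 such members in beads it ran from 11.8% (Lhx1) to 60.8% (Six5), with a median of 24.05%. Six3 and Otp were steady in the depleted fraction, at 6.07% and 8.65%, whereas Otp in beads spanned 127.3 to 360.3 CPM.

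Pou4f1, Irx1 and Irx2 varied between single lysates. In the depleted library of WT 3 h vehicle f3 they stood at 0.400, 4.28 and 4.24 CPM, and in that of WT 3 h vehicle m1 at 6.28, 8.90 and 10.2 CPM. Lhx6 and Lhx8 went the other way between these 2 libraries, at 33.4 and 9.55 CPM in f3 and at 17.2 and 4.82 CPM in m1. Depleted levels of Lhx8 ran from 1.48 CPM in ob/ob vehicle 1 to 11.1 CPM in WT 10 h vehicle 1, and those of Lhx6 from 8.55 CPM in WT 3 h leptin f2 to 34.4 CPM in ob/ob vehicle 2. The extremes of a member fell in the same lysate in either fraction for some, such as the highest Lhx6 (ob/ob vehicle 2, 21.1 CPM in beads) and the lowest Pou4f1 (WT 3 h vehicle f3, 0.852 CPM in beads). They did not for others: Lhx8 in beads was highest in ob/ob vehicle 2, at 8.84 CPM, and Lhx6 in beads lowest in ob/ob vehicle 1, at 5.32 CPM. The f3 and m1 libraries set against each other above are both WT 3 h vehicle. By DESeq2, though not by edgeR, Irx2 and Pou4f1 in beads were also called for genotype, and Irx1 and Irx2 for time. The labels do not say how evenly the tissue was cut, and the cause of these spreads was not tested.

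**Figure D4:**
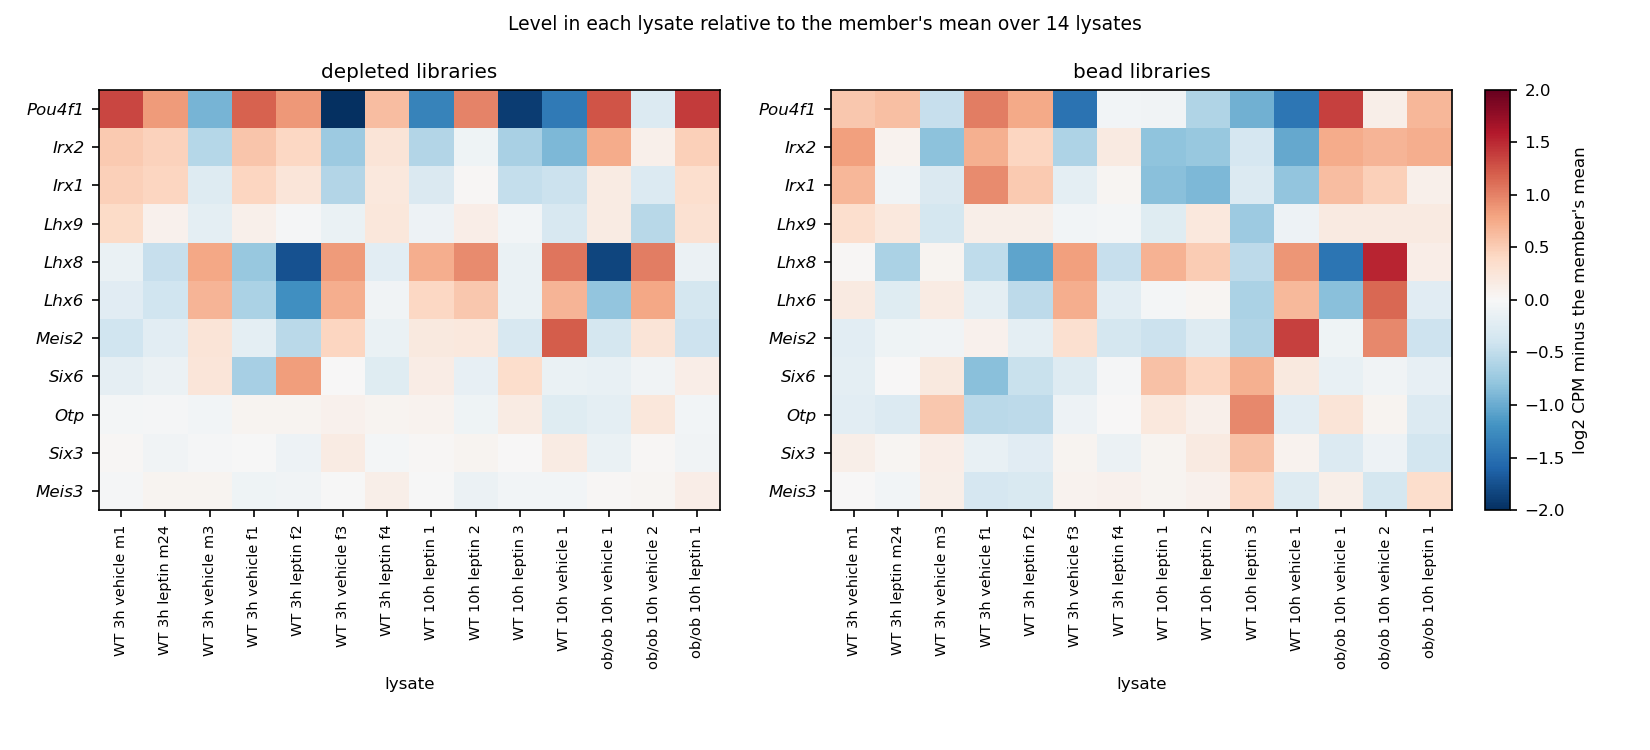
Log2 level of 11 members in each of 14 lysates relative to the member's mean over them, for depleted (left) and bead (right) libraries; red is above and blue below the mean. Pou4f1 ranges from 0.400 to 6.55 CPM and Lhx8 from 1.48 to 11.1 CPM over depleted libraries, whereas Otp, Six3 and Meis3 stay close to their means there.

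The next question was whether leptin changed any regional factor. Within a fraction, leptin and vehicle were compared in the same sequencing run, by an edgeR quasi-likelihood fit of 6 groups over 14 libraries. At 3 h in beads none of the 54 tested members passed, and 0.022% of all genes did. At an unadjusted p under 0.05 there were 3 members (5.56%, against 7.48% of all genes). They were Tbx6 (-1.23 ± 0.41), Irx6 (-0.78 ± 0.26) and Dlx2 (-0.46 ± 0.17), each with an adjusted p of 0.656. Irx6 had 5.09, 4.00 and 4.53 CPM in the leptin libraries and 8.96, 10.8, 4.55 and 6.82 CPM in the vehicle libraries, so the groups overlapped. Lhx6 was at -0.57 ± 0.36, with an adjusted p of 0.726. DESeq2 and limma voom called no member either. In the same bead comparison 10 of 10 oligodendrocyte, 8 of 8 microglia and 5 of 5 endothelial markers had negative differences (medians -0.32, -0.62 and -0.92), none passing; their part was not tested.

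In the depleted fraction at 3 h none of 57 members passed by edgeR, with 0% of all genes called, and none by DESeq2 or limma voom. At an unadjusted p under 0.05 there were 5 members (8.77%, against 9.48% of all genes). The 5 were Nkx2-2 (0.27 ± 0.08), Tbx15 (0.99 ± 0.33), Lhx1 (0.30 ± 0.13), Six3 (-0.12 ± 0.05) and Irx3 (0.34 ± 0.15). Their adjusted p-values lay between 0.374 and 0.519. The difference of the leptin effect between fractions at 3 h was called for no member of 58 and for 0.0102% of all genes. Irx6 was the single member with an unadjusted p under 0.05 (-0.95 ± 0.35), or 1.72% of members against 3.15% of all genes. DESeq2 and limma voom called none here.

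At 10 h the leptin effect was the mean of the WT and the ob/ob effect, which rest on 1 and 2 vehicle lysates and 3 and 1 leptin lysates. No member of 54 passed in beads by edgeR (0.022% of all genes called) and none by limma voom. At an unadjusted p under 0.05 there were 6 members (11.1%, against 9.09% of all genes). DESeq2 called 106 of 18212 genes, 2 of them members, Tbx19 and Meis2. Tbx19 had 10.3, 8.87 and 16.3 CPM in the WT leptin libraries and 6.23 CPM in the WT vehicle library, and 11.5 CPM with leptin against 3.35 and 3.78 CPM with vehicle in ob/ob. Every leptin library therefore lay above every vehicle library of its genotype, with 1 vehicle library in WT and 1 leptin library in ob/ob. Tbx19 was named for its small p in these same values, so this order is no separate evidence. The log2 difference was 1.28 ± 0.27, with an adjusted p of 0.195 by edgeR and 0.00115 by DESeq2. Over 18 alternatives the adjusted p ran from 3.87e-06 to 0.364 and passed in 3 (DESeq2, no count filter, and without WT 3 h vehicle f1), while the difference stayed between 1.14 and 1.37. At 3 h Tbx19 stood at 8.78, 8.35 and 8.84 CPM with leptin and at 6.57, 9.06, 4.29 and 7.14 CPM with vehicle (0.36 ± 0.23, adjusted p = 0.727). Pituitary markers summed to 1.21 to 1.88 CPM in the WT leptin bead libraries and to 3.16 CPM in the WT vehicle one, and to 28.1 CPM with leptin against 1.79 and 2.23 CPM with vehicle in ob/ob; of the 9, Lhb was at 0 in every library, and their part in the Tbx19 difference was not tested. Depleted Tbx19 at 10 h differed by 0.37 ± 0.74, and the difference between fractions, 0.92 ± 0.68, did not pass (adjusted p = 0.811).

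Meis2 went down in beads at 10 h by 1.39 ± 0.23 as fitted (log2 difference -1.39, adjusted p = 0.0724 by edgeR, 8.97e-06 by DESeq2), which is not a call. The WT vehicle library held 52.3 CPM and the WT leptin libraries 15.1, 16.9 and 13.3 CPM, and the ob/ob vehicle libraries held 19.1 and 39.3 CPM against 15.2 CPM with leptin. Both genotypes thus had higher vehicle than leptin values, with WT vehicle 1 the highest of all 14 bead libraries. Over 18 alternatives the adjusted p ran from 3.7e-12 to 0.187, passing in 5. Meis2 passed without the 2 pituitary-rich lysates (0.0492), without WT 3 h vehicle f1 and without ob/ob vehicle 1. Depleted values went the same way, 129 CPM in WT vehicle 1 against 63.6, 64.2 and 44.4 CPM with leptin (-0.79 ± 0.27, adjusted p = 0.442). The 5 telencephalon markers (Neurod6, Drd1, Ppp1r1b, Slc17a7, Emx1) moved with it: all 5 had a negative leptin difference at 10 h in either fraction, with medians of -0.81 in beads and -1.33 in the depleted fraction, and none passed. Their summed level was 178 CPM in beads and 428 CPM depleted in WT 10 h vehicle 1, against 36.3 to 56.3 and 115 to 186 CPM in the WT 10 h leptin libraries. In ob/ob it was 86.8 and 106 CPM in beads with vehicle and 50.2 CPM with leptin. None of the 5 markers was at 0 in any library. Their part in the Meis2 difference was not tested.

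**Figure D5:**
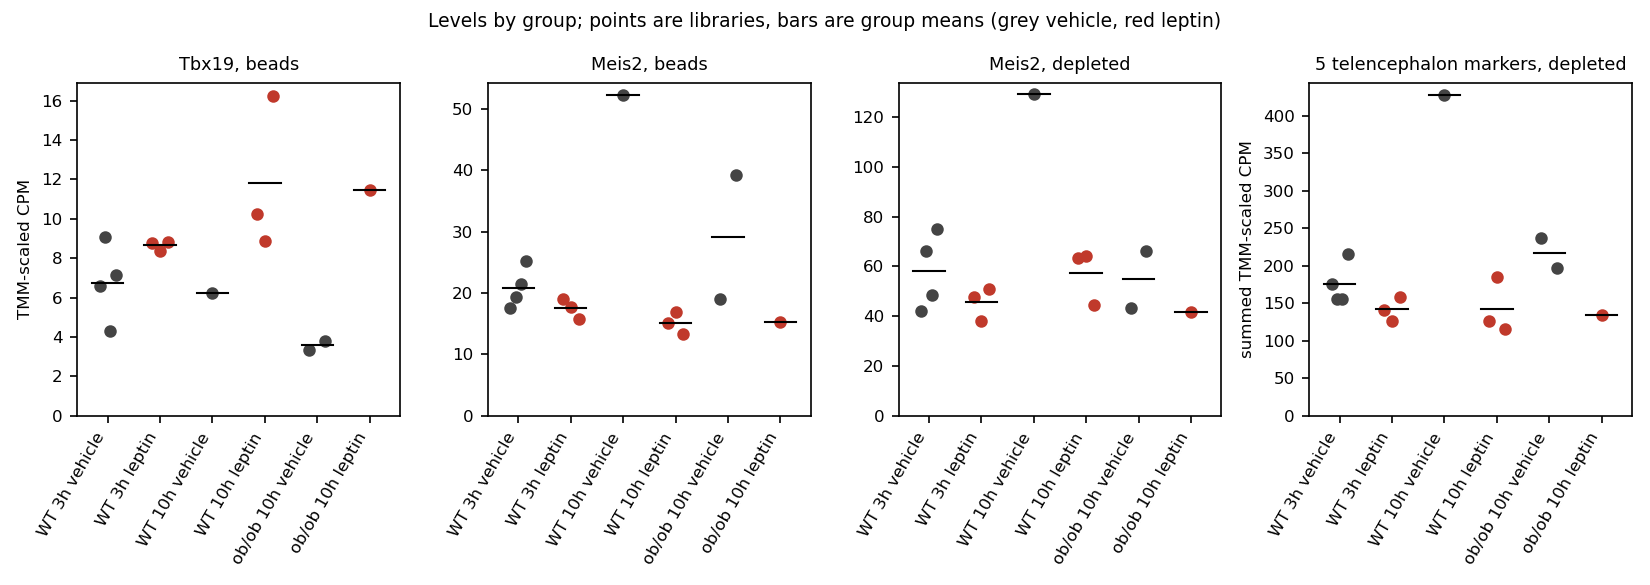
Tbx19 in beads, Meis2 in beads and in the depleted fraction (TMM-scaled CPM), and the summed level of 5 telencephalon markers in the depleted fraction, by group; points are libraries and bars group means, grey for vehicle and red for leptin. Tbx19 lies at 8.87 to 16.3 CPM with leptin and at 3.35 to 6.23 CPM with vehicle at 10 h, and the WT 10 h vehicle library stands highest for Meis2 (52.3 and 129 CPM) and for the telencephalon markers (428 CPM).

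The other members nearest the threshold at 10 h in beads were Meis3 (0.43 ± 0.16), Tbx18 (-1.55 ± 0.60) and Meis1 (-0.80 ± 0.33), with adjusted p-values of 0.529 to 0.531. Markers of non-neuronal cells were low in the same bead libraries: 10 of 10 oligodendrocyte, 8 of 8 astrocyte, 8 of 8 microglia, 5 of 5 mural and 5 of 5 leptomeningeal markers had a negative leptin difference at 10 h, with medians of -0.69, -0.67, -1.11, -0.59 and -0.99. None of these markers passed, and their part in the Tbx18, Meis1 and Meis2 values was not tested. For depleted libraries no member of 57 passed by edgeR (0.00523% of all genes called) and none by limma voom. At an unadjusted p under 0.05 there were 4 members (7.02%, against 8.98% of all genes). DESeq2 called 114 of 19115 genes, 1 of them a member. That member was Pou3f1 (-0.59 ± 0.17), at 24.7 CPM in WT vehicle 1 against 15.3, 16.7 and 10.1 CPM with leptin. Pou3f3 (-0.19 ± 0.07) and Lhx9 (0.38 ± 0.19) were among the 5 smallest p-values. Between fractions no member of 58 passed at 10 h by any of the 3 tools, with 0% of all genes called by edgeR. At an unadjusted p under 0.05 there were 5 members (8.62%, against 6.75% of all genes). Among them were Meis2 (-0.55 ± 0.19), Meis3 (0.40 ± 0.15), Pou2f1 (-0.53 ± 0.20) and Lhx9 (-0.48 ± 0.20). Within beads at 10 h the leptin difference was 0.11 ± 0.28 for Otp, 0.08 ± 0.21 for Isl1 and 0.12 ± 0.18 for Tbx3, none of which passed.

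Genotype and time were compared next, with the run confounded in each. Between ob/ob and WT at 10 h no member of 54 passed in beads by edgeR, where 0.472% of all genes did, and none by limma voom. At an unadjusted p under 0.05 there were 12 members (22.2%, against 9.78% of all genes). Tbx3 had the smallest p, with 34.2, 28.2 and 29.2 CPM in ob/ob and 51.7, 50.0, 68.4 and 44.2 CPM in WT, a log2 difference of -0.73 ± 0.18 (adjusted p = 0.119). The genotypes did not overlap, and the median over all 14 bead libraries, 41.9 CPM, lay between them. The highest value, 68.4 CPM, was that of WT 10 h leptin 3. Without the 2 pituitary-rich lysates edgeR called Tbx3 (adjusted p = 0.0353) and Irx2 (0.0416). DESeq2 called 230 of 18212 genes, 3 of them members: Tbx3 (adjusted p = 0.0155), Irx2 (0.00763) and Pou4f1 (0.0457). Irx2 had 5.77, 5.49 and 5.68 CPM in ob/ob against 1.97, 2.02, 2.73 and 1.69 CPM in WT (1.54 ± 0.39, adjusted p = 0.133 by edgeR), again with no overlap, but in the WT 3 h bead libraries it ran from 1.94 to 6.06 CPM. Pou4f1 (1.72 ± 0.56), Pou6f1 (0.40 ± 0.11) and Six3 (-0.45 ± 0.15) completed the 5 smallest p-values. Markers of other cells were higher in the ob/ob bead libraries for 5 of 5 endothelial (median 0.88), 5 of 5 mural (0.63) and 8 of 8 astrocyte markers (0.27), none passing. Of 5 markers of thalamus and habenula, 3 were higher in ob/ob beads (median 0.42, none passed) and 5 of 5 in the depleted fraction (median 0.85, 1 passed); their part in the Irx2 and Pou4f1 values was not tested.

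Among depleted libraries 1 of 57 members passed between ob/ob and WT, against 5.57% of all genes, a share below that background. It was Pou6f1, a brain POU factor (chr15:100575318-100599984), with 104, 117 and 114 CPM in ob/ob and 97.4, 92.1, 86.8 and 89.4 CPM in WT at 10 h. The groups did not overlap, and the log2 difference was 0.30 ± 0.08 (adjusted p = 0.0456). It passed in 8 of 19 alternatives, with adjusted p-values from 0.00316 to 0.237, and was lost without both pituitary-rich lysates (0.0618), without WT 3 h leptin m24, vehicle f1, leptin f2 or vehicle f3, without WT 10 h leptin 2 or leptin 3, and without ob/ob vehicle 2. Onecut2 (-0.33 ± 0.09, adjusted p = 0.0561), Irx2 (1.11 ± 0.37), Meis2 (-0.85 ± 0.27) and Six3 (-0.16 ± 0.06) did not pass by edgeR. Onecut2 did without both pituitary-rich lysates (0.0457). DESeq2 called 1332 of 19115 genes, 3 of them members. These were Pou6f1 (DESeq2 adjusted p = 0.0172), Meis2 (0.0333) and Onecut2 (0.0439).

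Between 10 and 3 h in WT no member of 54 passed in beads by edgeR or limma voom, with 0% of all genes called. At an unadjusted p under 0.05 there were 10 members (18.5%, against 17.7% of all genes). DESeq2 called 470 of 18212 genes, 4 of them members. These were Dlx6 (0.49 ± 0.13 by edgeR), Six6 (0.58 ± 0.16), Irx1 (-0.999 ± 0.30) and Irx2 (-1.04 ± 0.34). Meis2 was at 0.56 ± 0.18. Non-neuronal markers were lower in the 10 h bead libraries for 10 of 10 oligodendrocyte (median -0.32), 5 of 5 oligodendrocyte precursor (-1.43), 5 of 5 endothelial (-1.56) and 5 of 5 mural markers (-1.03); none passed, and their part in these values was not tested. Six6 had 22.6 to 32.2 CPM at 10 h and 11.001 to 22.4 CPM at 3 h in beads. Among depleted libraries 1 of 57 members passed, against 7.18% of all genes. It was Nkx2-2, a factor of ventral progenitors and oligodendrocyte precursors, at 11.1 to 11.8 CPM at 10 h and 11.9 to 16.3 CPM at 3 h (-0.26 ± 0.07, adjusted p = 0.0446). The groups did not overlap, yet the call held in 5 of 20 alternatives, with adjusted p-values from 0.0282 to 0.638. It was lost without both pituitary-rich lysates (0.0702). Of the 14 lysates, leaving out ob/ob vehicle 1 or ob/ob vehicle 2 kept it, and leaving out any other that could be left out lost it. Isl1 (0.37 ± 0.11, adjusted p = 0.0507), Tbx15 (0.87 ± 0.27), Meis2 (0.75 ± 0.21) and Dlx6 (0.47 ± 0.15) did not pass by edgeR. DESeq2 called 1906 of 19115 genes, 4 of them members. These were Isl1 (DESeq2 adjusted p = 0.0107), Meis2 (0.0136), Dlx6 (0.0174) and Nkx2-2 (0.0282). Isl1 passed in 7 of 20 alternatives.

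The enrichment in beads itself was compared between strata, which cancels what both libraries of a lysate share. Between ob/ob and WT at 10 h it differed for no member of 58 by edgeR, DESeq2 or limma voom (0.0102% of all genes called by edgeR). At an unadjusted p under 0.05 there were 4 members (6.9%, against 4.97% of all genes). Irx5 (-0.76 ± 0.33), Tbx3 (-0.72 ± 0.31), Meis2 (0.40 ± 0.19) and Irx3 (-0.78 ± 0.37) were among the 5 smallest p-values, each with an adjusted p of 0.904. Between 10 and 3 h in WT it differed for no member by edgeR (0% of all genes called) or limma voom. DESeq2 called 147 of 19682 genes, 1 of them a member. At an unadjusted p under 0.05 there were 7 members (12.1%, against 14.5% of all genes). Pou2f1 (-0.66 ± 0.16, adjusted p = 0.189), Irx6 (0.95 ± 0.32), Dlx4 (-3.79 ± 1.46, from few counts), Irx5 (0.67 ± 0.26) and Six6 (0.62 ± 0.24) came first. The log2 ratio of beads to depleted for Tbx19 was 3.00 ± 0.95 in 7 WT lysates of 3 h, 4.09 ± 0.43 in 4 WT lysates of 10 h and 3.20 ± 0.63 in 3 ob/ob lysates (mean ± SD). For Isl1 it was 1.40 ± 0.30, 1.55 ± 0.10 and 1.41 ± 0.20, and for Otp 1.82 ± 0.40, 2.28 ± 0.35 and 2.01 ± 0.37. Each of the 3 genes was higher in beads in every lysate of every stratum, and their spreads overlapped between strata. Not all members were alike in this. The ratio of Tbx3 ran from 2.75 to 3.25 in WT at 10 h and from 1.96 to 2.61 in ob/ob, without overlap. For Irx5 these ranges were 1.14 to 2.22 and 0.635 to 0.826, and for Irx3 0.969 to 2.40 and 0.332 to 0.665. The WT 3 h ranges of Tbx3, Irx5 and Irx3 overlapped both.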

How the data were processed

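RNA-seq of the bead and depleted fraction of 14 hypothalamic lysates was analysed. STAR 2.7.6a and the GRCm38.p6 build are listed in the submitters' processing notes. The authors deposited raw counts of reads per gene, whole numbers without normalization, for 55487 genes and 28 libraries, and a list of the sequencing run of each library. No source used here names the counting program, the strand setting or the gene annotation. The poly(A) kit, per the labels' protocols, does not mark the strand. For 23 members, exonic bases are shared with another gene (GENCODE annotation, GRCm38), whose reads could not be told apart where strand was not used.

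Counts were tested in R 4.3.3 with edgeR 4.0.16 (quasi-likelihood, robust, two-sided) after TMM scaling. A gene entered a fit where 3 or more of its libraries had 10 or more counts. Benjamini-Hochberg adjustment covered every gene that entered, and calls were made at 0.05. Where no tool is named, an adjusted p is edgeR's. Beads and depleted were compared with the lysate as a block (13 residual degrees of freedom), because both libraries come from 1 lysate; bead and depleted deviations from the group means correlated at 0.102 to 0.471 in 12 lysates, and 11 correlated best with their own partner. Leptin, genotype and time used 1 coefficient for each of 6 groups per fraction (8 residual degrees of freedom), so a group of 1 library is assumed to vary like the rest. Differences between fractions used the lysate block with a bead coefficient per group. Levels are CPM scaled by TMM, as mean ± SD over libraries, and differences are log2 ± SE. CPM per kilobase of exon served for comparing genes. Replicate libraries differed beyond sampling noise in all 26 pairs of libraries of 1 group. The fits were tested on counts simulated with 1 dispersion for every gene and no lysate effect. Between fractions, over 19682 genes, 98.5% of 67 genes changed 1.5-fold were recovered. For leptin at 3 h in beads, over 18212 genes, 46.3% of 67 changed 1.5-fold and 95.5% of 67 changed 2-fold were recovered. For the difference of that effect between fractions these shares were 10.4% and 65.7%. Members varied unequally over lysates, by up to 60.8% in beads, so the shares may not hold for them. No 10 h, genotype or time comparison was simulated. No molecular identifiers are named, so depth bounds counting error only.

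Members follow the symbol rule; some of them are in the counts but are not reported here by name. Named genes between fractions were the 12 largest rises and falls among called members reaching 1 CPM whose sign was the same in 14 lysates, plus 30 fixed members and those that family accounts needed; elsewhere they were the called members or the 5 smallest p-values. The values in every library of further members were added after they were seen. Members and lists were chosen with earlier results of these data known. Alternatives were other scaling, no count filter, DESeq2 1.42.0, limma 3.58.1 voom, fits without the block, without single lysates or the 2 pituitary-rich ones, vehicle lysates only, and a term for the letter m or f in the titles.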

Additional observations from a re-analysis of the deposited data

Results flagged for a closer look

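Of 88 values of members in groups of 4 libraries, 4 had 1 library whose gap to the others exceeded Dixon's 95% limit; chance alone would give about 1 in 20. All lie in WT 3 h vehicle, the single group of 4. Pou1f1, the pituitary factor, stood at 0.522 CPM in the bead library and at 2.49 CPM in the depleted library of m3, with 0 in the other 3 libraries of each; 9 pituitary markers summed to 288 CPM in the depleted library of m3. Pou6f1 was low in the depleted library of m1, at 82.1 CPM against 96.9 to 99.2 CPM. Sim1 was high in the bead library of f1, at 7.85 CPM against 5.93 to 6.25 CPM.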

How the results depend on the processing

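Between fractions, 15 to 17 members were called higher and 31 to 34 lower when each lysate was left out in turn, and 15 or 16 higher and 29 to 37 lower under the other alternatives. In the fit with no replicate block, so without the lysate pairing, 15 were higher and 31 lower, and no member was called by fraction or between strata (0 in each); the pairing moved no count of members by over 1.5 times, though Pou1f1 and Dlx5 lost their calls (adjusted p = 0.137 and 0.131). For leptin, genotype and time within a fraction, no paired analysis was possible because the groups compared share fewer than 2 replicate numbers that mark a common source. Scaling by totals alone moved the median of all genes from -0.01 to -0.19 and the calls over all genes from 7603 higher and 7730 lower to 5393 and 9925, and members to 15 and 37. Lhx3 turned to -0.033 with DESeq2 size factors, -0.17 with totals, -0.0052 with no filter, -0.042 by DESeq2 and -0.036 with vehicle lysates only, and ranged from -0.056 to 0.10 without single lysates. Six3 turned to -0.11 and Dlx6 to -0.085 with totals. Without a count filter, calls rose over all genes as well, given in brackets after the members called. Members were 2 and 7 for leptin at 3 h in beads and depleted (191 and 640 genes). At 10 h they were 4 and 5 (465 and 592), and 2 by fraction (370). They were 4 and 12 for genotype (394 and 1901), 12 and 15 for time (1351 and 2195), and 6 for enrichment over time (1199). DESeq2 called 2 and 1 for leptin at 10 h (106 and 114 genes) and 3 and 3 for genotype (230 and 1332). It called 4 and 4 for time (470 and 1906), and 1 for enrichment over time (147). In the depleted fraction limma voom called 0 for genotype and 2 for time, totals alone 0 for time, and vehicle groups only 0 for each. Without the pituitary-rich lysates 1 member was called for leptin at 10 h in beads (of 15 genes) and 2 for genotype in beads (of 130). Leaving out single lysates gave 0 to 2 members for leptin at 10 h in beads (2 without WT 3 h vehicle f1, 1 without ob/ob vehicle 1), 0 to 1 for genotype in beads, for time in beads and for enrichment over time (each 1 without WT 3 h vehicle m3), 0 to 5 for genotype in the depleted fraction (5 without ob/ob vehicle 2; 2 without WT 3 h m1, m3 or f4 or WT 10 h leptin 3), 0 to 4 for time there (4 without either ob/ob vehicle, 3 without m3), and 0 elsewhere. The cause of these changes was not tested. No fit without WT 10 h vehicle 1 or, for leptin and genotype, ob/ob leptin 1 could be made where that library is the whole group. Depth limits the low members: 21 had fewer than 3 libraries with 10 counts and could not be tested.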
